A study of Homo sapiens with 24 samples.

Results

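The 10 genes described here are NRF2 and thiol redox genes: NFE2L2, KEAP1, NQO1, HMOX1, SRXN1, TXNRD1, TXN, GCLC, GCLM and PRDX1. They were taken by symbol from a table of 25341 genes measured in 24 RNA-seq libraries, and each symbol matched 1 row. The libraries come from 4 multiple myeloma cell lines, MM1R, MM1S, KMS-12-BM and KMS-12-PE, with 3 libraries of cells given a siRNA pool against IRF4 (siIRF4) and 3 of control cells (CTRL) in each line. siIRF4 cells were electroporated with the pool and carry the label 48 hours, whereas CTRL cells carry the label DMSO and 0 hours, and no control siRNA is named. All lines were grown in RPMI 1640 medium with fetal bovine serum. siIRF4 and CTRL therefore differ together in IRF4, siRNA delivery, electroporation, DMSO and time, which cannot be told apart, and the comparison concerns the treatment as a whole. The labels do not state that replicates were separate cultures, so the p-values measure the spread between these libraries, which may be technical. The siRNA was a pool (ON-TARGET) delivered on the Neon system. Each line is an established culture.

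NRF2, the protein encoded by NFE2L2, is a transcription factor that turns on genes of thiol and redox metabolism. In unstressed cells KEAP1, an adaptor of a CUL3 ubiquitin ligase, binds NRF2 and hands it over for degradation, and electrophiles or oxidants that modify cysteines of KEAP1 let NRF2 accumulate. NRF2 then pairs with a small MAF protein and binds antioxidant response elements, which BACH1 can occupy as a repressor. Because NRF2 is set largely by protein turnover, the level of its mRNA is not a measure of its activity. Among its known targets are the quinone reductase NQO1, the heme oxygenase HMOX1, the thioredoxin system (TXN, its reductase TXNRD1, the peroxiredoxin PRDX1 and the sulfiredoxin SRXN1, which repairs over-oxidised peroxiredoxins) and both subunits of the enzyme that limits glutathione synthesis (GCLC and GCLM). Plasma cells and myeloma cells secrete disulfide-rich antibody and carry a high oxidative load from protein folding. IRF4, the factor targeted here, is a transcription factor on which myeloma cells depend.

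The RefSeq promoter table (GRCh38.p14, whereas the deposited values were made on hg19) held 11 promoters of 8 of the 10 genes, all except HMOX1 and PRDX1. The 250 bases before each start were searched on both strands for the core of the antioxidant response element, TGACNNNGC, where N is any base. The core was found in 4 of the 11 promoters, 1 of GCLM, 2 of TXNRD1 and 1 of KEAP1 with 2 matches, against 10.9% of all 35116 promoters in the table. These stretches are shown because they are the letters that NRF2 and its partners are known to read, each 5′ to 3′ on the strand of its gene with the match in capitals.
GCLM, chr1:93909450-93909470, minus strand: atttctGCTTAGTCAttgtct
TXNRD1, chr12:104215674-104215694, plus strand: gggctaTGACTTCGCtgttgt
TXNRD1, second promoter, chr12:104286924-104286944, plus strand: atttctGCTTTGTCAttctga
KEAP1, chr19:10502811-10502831, minus strand: ttattgTGACACGGCgggcgc
KEAP1, chr19:10502788-10502808, minus strand: ggctctGCTTAGTCAtggtga
The first TXNRD1 match and the first KEAP1 match read along the gene's strand and the other matches on the opposite strand. In GENCODE 29 the first TXNRD1 window lies outside any exon, and the other windows lie in annotated exons of the same gene. With an A before these letters, the longer form (which holds the shorter one) was again in 4 of the 11 promoters, against 1.89% of all promoters. The AP-1 element TGANTCA was in 0 of the 11 (6.57% of all), the interferon-stimulated response element core (GAAA and GAAA with any 2 bases between) in 1, of TXNRD1 (3.02% of all), and the ETS-IRF composite element (GGAA and GAAA with any 2 bases between) in 0 (2.41% of all). A match describes the letters only, and the absence of one says only that these letters are not in this window.

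IRF4 transcripts fell in every line without overlap between groups, with log2 changes of -1.07 ± 0.067 (SE) in KMS-12-PE, -1.01 ± 0.067 in MM1S and smaller ones in KMS-12-BM (-0.70 ± 0.067) and MM1R (-0.39 ± 0.067). The mean was lowest after siIRF4 in MM1S (141 ± 12.4 TPM, SD, n = 3) and highest in MM1R (291 ± 27.8 TPM). TPM is a transcript level scaled to length and library size, so values can be compared between genes. Whole reads recovered from the TPM values came to 17.3 to 27.4 M per library, and the 10 genes had between 122 reads (NQO1 in KMS-12-BM) and 22634 reads (PRDX1) per library, so all passed the filter of at least 1 TPM in at least 3 libraries. All 10 plasma cell markers were present at 1 TPM or more in every group, and their summed level was lower in siIRF4 than in CTRL in each line, for example 2459 to 2545 TPM in CTRL and 1843 to 1873 TPM in siIRF4 in KMS-12-BM. IRF4, the siRNA target, is 1 of these 10, so part of the lower sum is its own fall (means of 361 and 222 TPM in KMS-12-BM). All 9 stromal markers were called lower on average, as were 26.5% of all tested genes. By line, 8 were called lower in KMS-12-PE (22.2% of all tested genes), 2 in KMS-12-BM (6.09%) and 1 in MM1R (21.2%). In MM1S 1 was called lower (21.1%) and 2 higher (29.1%). The sum of the 9 ranged over 134 to 176 TPM in CTRL and 82.6 to 92.8 TPM in siIRF4 in KMS-12-PE. In MM1S it ranged over 103 to 193 TPM in CTRL and 97.3 to 126 TPM in siIRF4. From 7 to 9 of the 9 had means of 1 TPM or more in the groups of KMS-12-PE and MM1S, against 1 or 2 in those of MM1R and KMS-12-BM. The summed 7 myeloid markers ranged over 147 to 183 TPM in CTRL and 36.4 to 51.5 TPM in siIRF4 in KMS-12-PE, nearly all from S100A8 and S100A9, over 22.6 to 27.5 TPM in CTRL and 93.1 to 99.7 TPM in siIRF4 in MM1R, over 107 to 173 TPM in CTRL and 63.4 to 169 TPM in siIRF4 in MM1S, and was at most 1.87 TPM in KMS-12-BM. LYZ, CD14, CSF1R, ITGAM and FCGR3A, which define myeloid cells, did not pass the filter. The 8 epithelial markers summed to 227 to 248 TPM in CTRL and 165 to 186 TPM in siIRF4 in KMS-12-PE, 209.8 to 215 TPM in CTRL and 213 to 226 TPM in siIRF4 in KMS-12-BM, 90.6 to 129 TPM in CTRL and 39.4 to 102 TPM in siIRF4 in MM1S and at most 6.88 TPM in MM1R, where KRT14 was at 0 in all libraries. Of the 8 T and NK cell markers, 6 were tested and 5 were called higher on average, as were 33.1% of all tested genes. They summed to at most 66.3 TPM, in KMS-12-PE siIRF4, and the 5 erythroid markers to at most 30.5 TPM. The part of these other cell types in the results below was not tested. In bulk RNA, fewer cells of a kind and less RNA per cell cannot be told apart.

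The 10 genes changed in both directions in siIRF4 cells. SRXN1 (log2 change -0.37 ± 0.028, SE), GCLM (-0.31 ± 0.031), TXNRD1 (-0.28 ± 0.016), TXN (-0.18 ± 0.023) and KEAP1 (-0.091 ± 0.020) fell on average over the 4 lines. HMOX1 (0.39 ± 0.056), PRDX1 (0.17 ± 0.022), GCLC (0.13 ± 0.026) and NFE2L2 (0.055 ± 0.023) rose. The value of NQO1 was -0.015 ± 0.035 (adjusted p = 0.739). With limma and an adjusted p under 0.05, 4 of the 10 were higher and 5 lower, against 59.6% of the 15113 tested genes called in either direction (33.1% higher and 26.5% lower), so calls were common among genes at large. The median log2 change of the 10 was -0.053, beside 0.024 over all tested genes. The average changes were small, at most 1.31-fold upward for HMOX1 and 1.29-fold downward for SRXN1 on the log2(TPM + 1) scale.

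**Figure D1:**
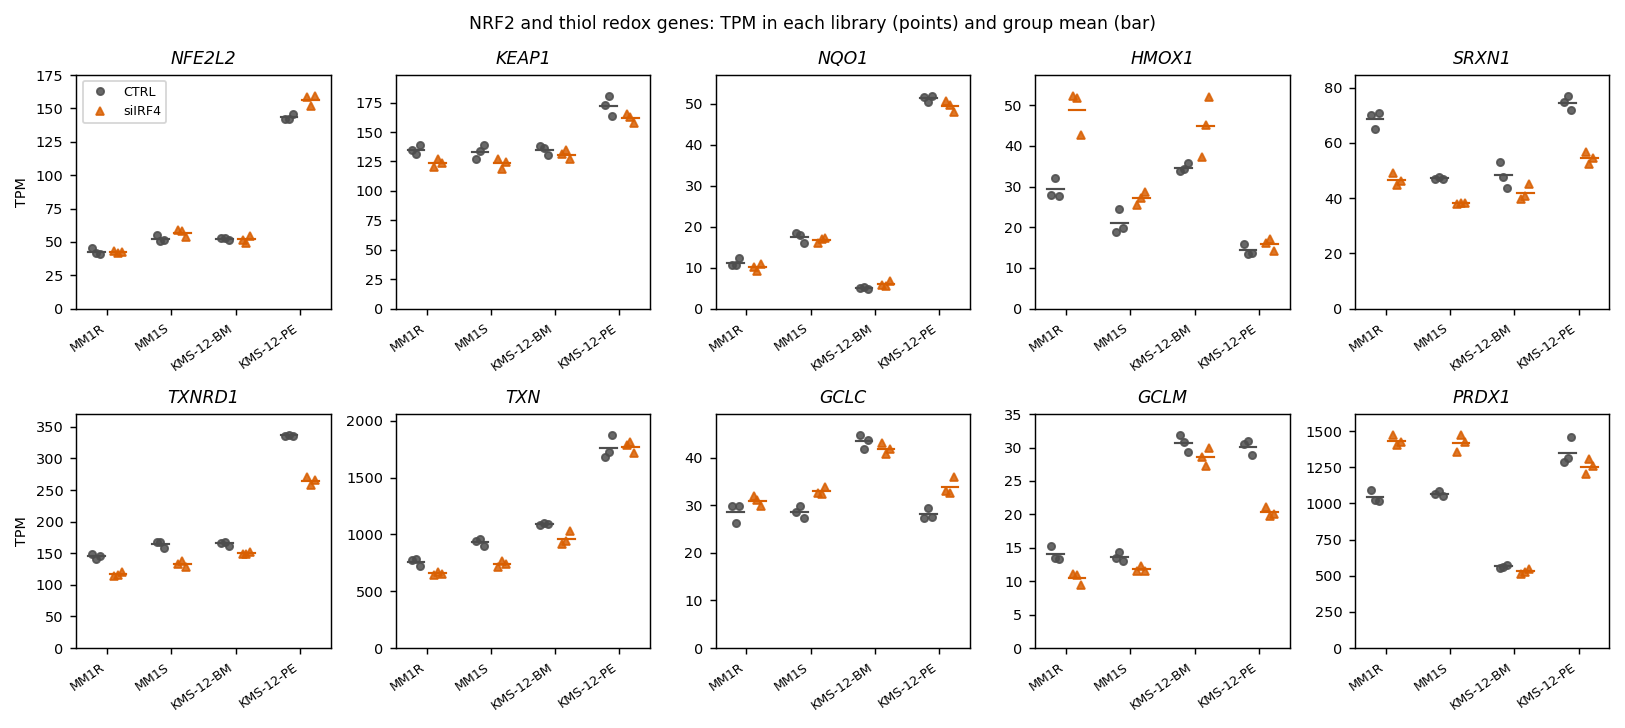
TPM (vertical axis, from 0, separate scale for each gene) of the 10 genes in each of the 24 libraries, by cell line, with grey circles for CTRL, orange triangles for siIRF4 and a bar at the mean of 3 libraries. The siIRF4 means of SRXN1 and TXNRD1 are lower in each line, PRDX1 sits higher in siIRF4 in MM1R and MM1S, and NFE2L2, NQO1, TXNRD1 and TXN are highest in KMS-12-PE.

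In MM1R, 2 members rose and 5 fell (46.2% of all tested genes were called there, 25.0% higher and 21.2% lower). In MM1S, 4 rose and 5 fell (50.3% of all tested genes, 29.1% higher and 21.1% lower). KMS-12-BM had 2 that rose and 3 that fell (17.5% of all tested genes, 11.4% higher and 6.09% lower), as did KMS-12-PE (38.1%, 15.9% and 22.2%). The 5 that fell in MM1R, which are KEAP1, SRXN1, TXNRD1, TXN and GCLM, were also the 5 that fell in MM1S. SRXN1 and TXNRD1 were the 2 members called lower in all 4 lines, and no member was called higher in all 4. The share of all tested genes called in all 4 lines was not counted, and the groups of SRXN1 overlapped in KMS-12-BM. The 3 siIRF4 and 3 CTRL values did not overlap for 7 members in MM1R (53.8% of all tested genes), 8 in MM1S (55.0%), 5 in KMS-12-PE (47.4%) and 5 in KMS-12-BM (34.3%). TXNRD1 was the 1 member below CTRL without overlap in every line, which 3.29% of all tested genes were, and 0 members were above CTRL in that way (3.94% of all tested genes). In KMS-12-BM the count rested on single libraries, since leaving out any 1 of its 6 libraries lowered it from 5 to 2 or 3.

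Of the regulators, NFE2L2 rose slightly in KMS-12-PE and MM1S, and KEAP1 fell slightly in the MM1 lines. NFE2L2, which encodes NRF2, stood at 142, 142 and 146 TPM in CTRL and 158, 152 and 159 TPM in siIRF4 in KMS-12-PE. The siIRF4 values all lay above the CTRL values there, a rise of 9.30% in the mean (0.13 ± 0.047, adjusted p = 0.0358). In MM1S, NFE2L2 had 55.2, 50.5 and 51.7 TPM in CTRL and 59.0, 58.0 and 53.7 TPM in siIRF4. These groups overlapped, and the change of 0.12 ± 0.047 passed the test narrowly (adjusted p = 0.0453). MM1R had 45.7, 41.9 and 40.8 TPM in CTRL and 43.5, 41.7 and 42.5 TPM in siIRF4, and KMS-12-BM 53.0, 52.7 and 51.7 TPM in CTRL and 51.6, 49.4 and 54.7 TPM in siIRF4. The groups of both lines were interleaved, with log2 differences of -0.0046 ± 0.047 (adjusted p = 0.961) and -0.017 ± 0.047 (adjusted p = 0.873). The average call of NFE2L2 (adjusted p = 0.0465) was lost when any 1 of 17 of the 24 libraries was left out (adjusted p 0.0529 to 0.094), with no filter on low values (0.0636), without the trended prior (0.0555) and with median-of-ratios scaling (0.117). The call in KMS-12-PE was lost without siIRF4 replicate 1 or 3 or CTRL replicate 1 or 2 (adjusted p 0.0901 to 0.11) and with no filter on low values (0.0502). The call in MM1S was lost without any 1 of 13 libraries (0.0507 to 0.179) and under 5 other alternatives (0.0546 to 0.134).

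KEAP1, the adaptor that holds NRF2 down, fell in both MM1 lines by a small amount. In MM1R it had 135, 131 and 139 TPM in CTRL and 121, 127 and 124 TPM in siIRF4, 8.16% lower in the mean (-0.12 ± 0.041, adjusted p = 0.0185). In MM1S it had 127, 134 and 139 TPM in CTRL and 127, 119 and 125 TPM in siIRF4, 7.41% lower (-0.11 ± 0.041, adjusted p = 0.0298). The groups did not overlap in either line, but in MM1S the gap between the lowest CTRL and the highest siIRF4 library was under 1 TPM. KMS-12-BM had 138, 137 and 131 TPM in CTRL and 131, 135 and 127 TPM in siIRF4, and KMS-12-PE 173, 181 and 163 TPM in CTRL and 165, 163 and 158 TPM in siIRF4. The groups of both lines overlapped, with log2 differences of -0.045 ± 0.041 and -0.087 ± 0.041 and adjusted p = 0.518 and 0.102. KEAP1 lost its call in MM1R without siIRF4 replicate 1 or CTRL replicate 3 (adjusted p 0.0836 and 0.0812), and in MM1S without siIRF4 replicate 2 or CTRL replicate 2 or 3 (0.0702 to 0.148) or with that line fitted alone (0.0805). Without CTRL replicate 3, KEAP1 was called lower in KMS-12-PE (adjusted p = 0.0271).

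HMOX1, the stress-inducible enzyme that opens the heme ring and releases iron, carbon monoxide and biliverdin, had the largest rise of the 10 genes. In MM1R it stood at 28.0, 32.2 and 27.7 TPM in CTRL and 52.3, 51.8 and 42.6 TPM in siIRF4. Every siIRF4 library of MM1R was above every CTRL library, and the mean was 1.67-fold higher (0.72 ± 0.11, adjusted p = 2.39e-05). In MM1S the values were 18.8, 24.4 and 19.8 TPM in CTRL and 25.5, 27.2 and 28.6 TPM in siIRF4, and in KMS-12-BM 33.8, 34.2 and 35.7 TPM in CTRL and 37.2, 45.2 and 52.1 TPM in siIRF4. Both lines also separated without overlap, with means 1.29-fold (0.36 ± 0.11) and 1.30-fold (0.35 ± 0.11) higher, but the siIRF4 libraries of KMS-12-BM spread widely (SD 7.44 TPM). In KMS-12-PE, HMOX1 had 16.0, 13.6 and 13.7 TPM in CTRL and 16.0, 17.2 and 14.2 TPM in siIRF4. There the groups overlapped and the log2 difference was 0.12 ± 0.11 (adjusted p = 0.427). The call in MM1S (adjusted p = 0.011) was lost without CTRL replicate 1 (0.0627), and that in KMS-12-BM (adjusted p = 0.0336) without siIRF4 replicate 2 or 3 or any of the 3 CTRL libraries (0.0607 to 0.158), with no filter on low values (0.0501), with median-of-ratios scaling (0.0788) and with that line fitted alone (0.0944).

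NQO1, the flavoprotein that reduces quinones without a radical step and a common readout of NRF2 activity, was not called on average and was called in KMS-12-BM, the line where it was lowest. In KMS-12-BM it had 5.10, 5.24 and 4.84 TPM in CTRL and 5.80, 5.51 and 6.72 TPM in siIRF4. The siIRF4 values lay above the CTRL values (0.21 ± 0.071, adjusted p = 0.0487), but the call was lost when any 1 of 16 of the 24 libraries was left out (adjusted p up to 0.222), and under 6 of the other alternatives. In KMS-12-PE, with 51.6, 50.6 and 52.0 TPM in CTRL and 50.8, 49.6 and 47.9 TPM in siIRF4, the groups overlapped and the log2 difference was -0.055 ± 0.071 (adjusted p = 0.598). MM1R had 10.7, 10.7 and 12.4 TPM in CTRL and 10.2, 9.17 and 10.8 TPM in siIRF4, and MM1S 18.5, 18.1 and 16.1 TPM in CTRL and 15.9, 17.0 and 17.3 TPM in siIRF4. These groups also overlapped, with log2 differences of -0.15 ± 0.071 (adjusted p = 0.0935) and -0.062 ± 0.071 (adjusted p = 0.509). Without siIRF4 replicate 3, NQO1 was called lower in MM1R (adjusted p = 0.0434).

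In the thioredoxin system, the reductase and the repair enzyme fell in all 4 lines. TXNRD1, the cytosolic selenoenzyme that keeps thioredoxin reduced with NADPH, stood at 336, 337 and 336 TPM in CTRL and 270.3, 258 and 266 TPM in siIRF4 in KMS-12-PE. The CTRL libraries of that line were nearly equal, and every siIRF4 library lay well below them, a fall of 21.2% (-0.34 ± 0.033, adjusted p = 4.81e-08). In MM1R it had 149, 140.3 and 146 TPM in CTRL and 115, 116 and 120.2 TPM in siIRF4. MM1S showed 168, 168 and 158 TPM in CTRL and 133, 137 and 128 TPM in siIRF4, and KMS-12-BM 166, 168 and 162 TPM in CTRL and 148, 148 and 152 TPM in siIRF4. The groups were apart in each of these lines too, with falls of 19.5% in MM1R (-0.31 ± 0.033), 19.4% in MM1S (-0.31 ± 0.033) and 9.56% in KMS-12-BM (-0.14 ± 0.033), at adjusted p = 1.17e-07, 9.96e-08 and 0.00373. TXNRD1 kept its call in each line and on average under all alternatives run, each left-out library among them. Of the 4 lines, KMS-12-PE had the highest CTRL level. By limma its fall differed from that of KMS-12-BM (0.20 ± 0.047, adjusted p = 0.00382), whereas the falls of the MM1 lines were of similar size. The stromal, myeloid and epithelial marker sums of KMS-12-PE were lower in siIRF4 as well, as given above.

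SRXN1, the ATP-dependent enzyme that restores peroxiredoxins whose active cysteine has been over-oxidised, had the largest average fall of the 10. In MM1R it stood at 69.9, 65.2 and 70.7 TPM in CTRL and 49.2, 44.6 and 46.4 TPM in siIRF4. In MM1S it had 46.9, 47.6 and 46.8 TPM in CTRL and 37.8, 38.4 and 38.4 TPM in siIRF4, and in KMS-12-PE 74.6, 77.0 and 71.7 TPM in CTRL and 56.5, 52.4 and 54.6 TPM in siIRF4. All siIRF4 libraries of these 3 lines lay below all CTRL libraries, with falls of 31.9% in MM1R (-0.55 ± 0.057), 18.9% in MM1S (-0.29 ± 0.057) and 26.8% in KMS-12-PE (-0.44 ± 0.057), at adjusted p = 9.45e-08, 0.000176 and 2.7e-06. In KMS-12-BM the values were 53.0, 47.8 and 43.8 TPM in CTRL and 39.9, 40.9 and 45.0 TPM in siIRF4. Here the highest siIRF4 library was above the lowest CTRL library, and the fall of 13.0% (-0.19 ± 0.057, adjusted p = 0.021) was not called without siIRF4 replicate 1 or 2 or CTRL replicate 1 (adjusted p 0.0721 to 0.151) or with that line fitted alone (0.137). The AL121758.1 gene model shares exon bases with SRXN1 on the same strand in GENCODE 29, so some reads could belong to either.

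TXN, the thioredoxin that passes electrons to peroxiredoxins and ribonucleotide reductase, was with PRDX1 the most abundant of the genes per length. It fell in 3 lines, and in MM1S the libraries were at 943, 963 and 902 TPM in CTRL and 712, 764 and 742 TPM in siIRF4. In MM1R the libraries were at 772, 786 and 720.0 TPM in CTRL and 643, 671 and 655 TPM in siIRF4, and in KMS-12-BM at 1084, 1102 and 1092 TPM in CTRL and 914, 938 and 1031 TPM in siIRF4. None of the groups of these lines overlapped, and the falls were 21.0% in MM1S (-0.34 ± 0.045), 13.6% in MM1R (-0.21 ± 0.045) and 12.1% in KMS-12-BM (-0.19 ± 0.045), at adjusted p = 2.19e-06, 0.000659 and 0.00595. In KMS-12-PE, with 1683, 1725 and 1875 TPM in CTRL and 1791, 1811 and 1717 TPM in siIRF4, the groups overlapped (log2 difference 0.011 ± 0.045, adjusted p = 0.9). GENCODE 29 names 7 pseudogenes after TXN and 1 after PRDX1, whose reads the authors' counting could have split, so the absolute levels of both are less certain than those of the other members.

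PRDX1, the abundant peroxiredoxin that reduces hydrogen peroxide with thioredoxin as its donor, rose in the MM1 lines, where TXN, TXNRD1 and SRXN1 fell. In MM1R it stood at 1090.2, 1023 and 1014 TPM in CTRL and 1472, 1401 and 1427 TPM in siIRF4. In MM1S it had 1061, 1085 and 1052 TPM in CTRL and 1355, 1469.9 and 1423 TPM in siIRF4. Every siIRF4 library of both lines was above every CTRL library by a wide margin, with rises of 37.5% (0.46 ± 0.044) and 32.8% (0.41 ± 0.044; adjusted p = 2.36e-08 and 9.89e-08). In KMS-12-BM the libraries were at 554, 563 and 573 TPM in CTRL and 514, 527 and 549 TPM in siIRF4, and in KMS-12-PE at 1283, 1314 and 1456 TPM in CTRL and 1199.5, 1303 and 1258 TPM in siIRF4. The siIRF4 libraries were on the low side in both KMS-12 lines, without overlap in KMS-12-BM, but neither difference was called (-0.088 ± 0.044, adjusted p = 0.177, and -0.11 ± 0.044, adjusted p = 0.0591). The lower level in KMS-12-PE was called without siIRF4 replicate 2 or CTRL replicate 1 (adjusted p = 0.036 and 0.0222) and with a stricter filter (0.045). The average rise of PRDX1 therefore joins 2 called rises with 2 negative values that were not called. An exon of MMACHC, a cobalamin gene on the opposite strand, overlaps PRDX1 in GENCODE 29, and MMACHC had lower means in siIRF4 in each line (in MM1S 10.9 ± 0.505 against 8.58 ± 0.208 TPM).

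The 2 subunits of glutamate-cysteine ligase, which catalyses the first and limiting step of glutathione synthesis, moved apart. GCLM, the modifier subunit that makes the enzyme more active, stood at 30.6, 31.0 and 28.8 TPM in CTRL and 21.2, 19.7 and 20.0 TPM in siIRF4 in KMS-12-PE. These groups were far apart and the mean fell by 32.6% (-0.55 ± 0.062, adjusted p = 5.31e-07), the largest percent fall of a member in the 4 lines. In MM1R it had 15.3, 13.5 and 13.3 TPM in CTRL and 11.1, 10.9 and 9.40 TPM in siIRF4, and in MM1S 13.5, 14.4 and 13.1 TPM in CTRL and 11.5, 12.2 and 11.6 TPM in siIRF4. The groups of both lines did not overlap, with falls of 25.6% (-0.40 ± 0.062) and 13.7% (-0.20 ± 0.062; adjusted p = 2.14e-05 and 0.0117), that in MM1S not called without CTRL replicate 2 (0.0637). In KMS-12-BM, GCLM had 31.9, 30.8 and 29.3 TPM in CTRL and 28.5, 27.3 and 30.0 TPM in siIRF4, with overlap (log2 difference -0.10 ± 0.062, adjusted p = 0.323).

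GCLC, the catalytic subunit, rose in KMS-12-PE and MM1S, 2 of the 3 lines where GCLM fell. In KMS-12-PE it had 27.4, 29.3 and 27.6 TPM in CTRL and 33.0, 32.6 and 36.0 TPM in siIRF4, a rise of 20.6% (0.26 ± 0.052, adjusted p = 0.0004). In MM1S it had 28.7, 29.9 and 27.4 TPM in CTRL and 32.5, 32.5 and 33.7 TPM in siIRF4, a rise of 14.8% (0.19 ± 0.052, adjusted p = 0.00341). Both lines separated without overlap. MM1R had 29.8, 26.4 and 29.9 TPM in CTRL and 31.9, 31.1 and 29.7 TPM in siIRF4, and KMS-12-BM 44.7, 41.9 and 43.7 TPM in CTRL and 43.2, 40.8 and 41.7 TPM in siIRF4. Both overlapped, with log2 differences of 0.11 ± 0.052 (adjusted p = 0.0988) and -0.050 ± 0.052 (adjusted p = 0.574). The calls of GCLC and of GCLM in KMS-12-PE held when each library was left out in turn.

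**Figure D2:**
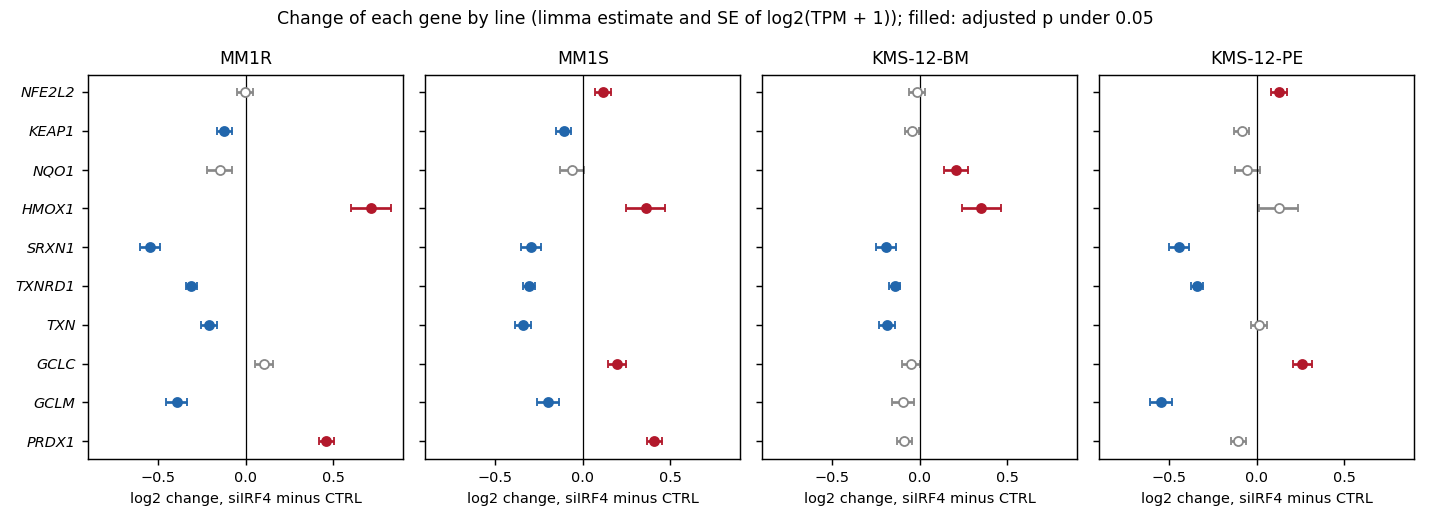
Log2 change of each gene (siIRF4 minus CTRL, horizontal axis, limma estimate on log2(TPM + 1) with its SE) in the 4 lines, filled where the adjusted p was under 0.05 (red higher, blue lower) and open where it was not. PRDX1 lies at 0.46 and 0.41 in the MM1 lines and left of 0 in the KMS-12 lines, while GCLM and GCLC are farthest apart in KMS-12-PE (-0.55 and 0.26).

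The responses of the lines were compared by interaction terms, that is, the log2 change in 1 line minus that in another. Between MM1R and MM1S, 0 of the 10 members differed by limma's adjusted p, against 2.47% of all tested genes. Among the 10, 3 members (HMOX1, SRXN1 and GCLM) had an unadjusted p under 0.05, and voom on the recovered reads also called 0. IRF4 itself fell less in MM1R than in MM1S (0.62 ± 0.094, adjusted p = 0.000908), and the part of that difference in the member responses was not tested. Between KMS-12-BM and KMS-12-PE, 5 differed (23.0% of all tested genes). GCLM (0.45 ± 0.088, adjusted p = 0.000923), SRXN1 (0.25 ± 0.081, 0.0298) and TXNRD1 (0.20 ± 0.047, 0.00382) had the more negative change in KMS-12-PE. GCLC (-0.31 ± 0.073, 0.00394) differed the other way, having risen in KMS-12-PE, and so did TXN (-0.20 ± 0.064, 0.0299), which fell in KMS-12-BM. KMS-12-PE also lost more IRF4 than KMS-12-BM (0.37 ± 0.094, adjusted p = 0.0067), and the part of that difference in these 5 was not tested. The count of 5 fell to 3 without KMS-12-BM CTRL replicate 2 or 3, KMS-12-PE siIRF4 replicate 2, or KMS-12-PE CTRL replicate 1 or 2, through SRXN1 (adjusted p up to 0.0974) and TXN (up to 0.0843). SRXN1 was also lost with median-of-ratios scaling (0.0852) and TXN without the trended prior (0.0506), and NFE2L2 joined with median-of-ratios scaling (0.0318) and voom (0.0169). NQO1 joined without MM1R CTRL replicate 3 or KMS-12-BM siIRF4 replicate 2 (adjusted p 0.0355 at the lowest).

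Between the MM1 lines and the KMS-12 lines, 4 members differed (44.9% of all tested genes). PRDX1 stood out in size, with a response 0.53 ± 0.044 higher on the log2 scale in the MM1 lines (adjusted p = 2.93e-09). TXN had the more negative response in the MM1 lines (-0.19 ± 0.045, adjusted p = 0.00202). HMOX1 (0.30 ± 0.11, adjusted p = 0.0349) and NQO1 (-0.18 ± 0.071, adjusted p = 0.0427) passed narrowly, and their calls were lost when any 1 of 11 and of 14 of the 24 libraries was left out (adjusted p 0.0563 to 0.0679 and 0.0502 to 0.0878). Both were also lost with no filter on low values (0.0519 and 0.061), and HMOX1 with median-of-ratios scaling (0.0546) and voom (0.0803). The count of 4 fell to 2 without MM1R siIRF4 replicate 1 or 2, MM1R CTRL replicate 3, MM1S CTRL replicate 1, KMS-12-BM CTRL replicate 3 or KMS-12-PE CTRL replicate 1. Without KMS-12-BM CTRL replicate 1, SRXN1 also differed (adjusted p = 0.0376). IRF4 itself fell less in the MM1 lines than in the KMS-12 lines (0.19 ± 0.067, adjusted p = 0.0273), and the part of that in the member responses was not tested.

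In CTRL cells, KMS-12-PE had the highest mean of the 4 lines for 7 of the 10 genes: NFE2L2, KEAP1, NQO1, SRXN1, TXNRD1, TXN and PRDX1. For SRXN1 it was not separated from MM1R by limma (adjusted p = 0.0651). The share of all tested genes with their highest CTRL mean in KMS-12-PE was not counted. NFE2L2 was at 143 ± 2.27 TPM there, 3.35-fold the 42.8 ± 2.58 TPM of MM1R, while MM1S and KMS-12-BM shared a level of 52.5 TPM. NQO1 spanned the widest range, from 5.06 ± 0.205 TPM in KMS-12-BM through 11.3 ± 1.01 TPM in MM1R and 17.5 ± 1.28 TPM in MM1S to 51.4 ± 0.724 TPM in KMS-12-PE, a 10.2-fold range in which every step between neighbours passed the test. The KMS-12 lines were thus at opposite ends for NQO1. TXNRD1 was at 336 ± 0.512 TPM in KMS-12-PE, with MM1S and KMS-12-BM not separated (adjusted p = 0.838, but 0.0382 with voom), and TXN at 1761 ± 101 TPM, each 2.32-fold the level of MM1R, the lowest line for both. KEAP1 differed least, at 172 ± 8.71 TPM in KMS-12-PE and between 133 and 135 TPM in the others, neighbours that did not differ beyond their spread (adjusted p = 0.73 and 0.993, the latter 0.0315 with voom).

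Other members were ordered differently. HMOX1 was lowest in KMS-12-PE (14.4 ± 1.36 TPM) followed by MM1S (21.0 ± 2.99 TPM) and MM1R (29.3 ± 2.50 TPM) and KMS-12-BM (34.6 ± 0.984 TPM), the last 2 of which were not separated (adjusted p = 0.0596), except without MM1R siIRF4 replicate 3, MM1R CTRL replicate 2, KMS-12-BM siIRF4 replicate 1 or 3, or MM1S CTRL replicate 2 (0.0315 to 0.0467), and with voom on the recovered reads (0.0113). GCLC was highest in KMS-12-BM (43.4 ± 1.43 TPM) and between 28.1 and 28.7 TPM in the other 3 lines, whose neighbours were not separated (adjusted p = 0.642 and 1), although median-of-ratios scaling separated MM1S and KMS-12-PE (0.0112). GCLM split the lines by family, with 30.1 TPM in KMS-12-PE and 30.7 TPM in KMS-12-BM against 13.7 TPM in MM1S and 14.1 TPM in MM1R (MM1R against KMS-12-PE, adjusted p = 5.5e-13). PRDX1 was lowest in KMS-12-BM (563 ± 9.80 TPM), below MM1R (1042 ± 41.5 TPM), MM1S (1066 ± 16.5 TPM) and KMS-12-PE (1351 ± 92.4 TPM), with no difference called between the MM1 lines. SRXN1 formed 2 pairs, MM1S and KMS-12-BM (47.1 and 48.2 TPM) below MM1R and KMS-12-PE (68.6 and 74.5 TPM), with neither pair separated within itself (adjusted p = 0.652 and 0.0651). MM1R and KMS-12-PE were called different for SRXN1 without KMS-12-BM CTRL replicate 1 or 3 or KMS-12-PE CTRL replicate 3 (0.0364 to 0.0454), and with voom on the recovered reads (0.00627). Of the 10 members, 6 differed between MM1R and MM1S (57.3% of all tested genes), 8 between MM1R and KMS-12-BM (81.5%), 8 between MM1R and KMS-12-PE (81.9%), 6 between MM1S and KMS-12-BM (83.5%), 9 between MM1S and KMS-12-PE (79.3%) and 9 between KMS-12-BM and KMS-12-PE (77.3%). These counts are near the shares of all genes in most pairs. The median difference did lean one way: it was -0.71, -0.78 and -0.65 for MM1R, MM1S and KMS-12-BM minus KMS-12-PE, beside -0.017, -0.067 and -0.011 over all tested genes.

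**Figure D3:**
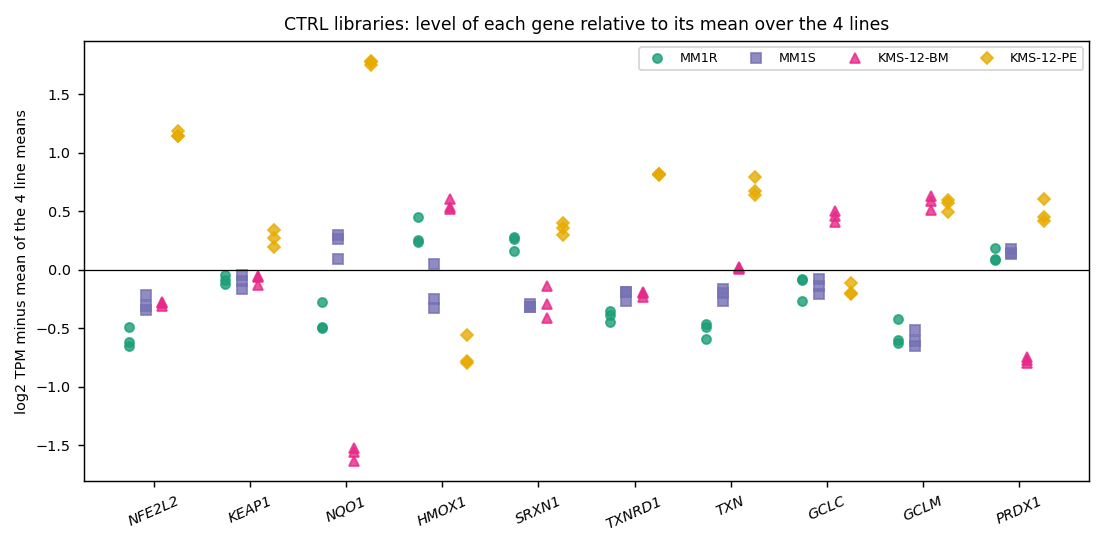
Level of each gene in the 12 CTRL libraries (points, by line) as log2 TPM minus the mean of the 4 line means (vertical axis, 0 at the horizontal line). KMS-12-PE is the highest line for 7 of the 10 genes, NQO1 spans a 10.2-fold range of line means, and HMOX1 and GCLC are highest in KMS-12-BM.

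The wider NRF2 circuit was read from gene lists that exclude the 10 members, and counts are of genes passing the test on average out of those tested. Means of 3 CTRL and 3 siIRF4 libraries are given in that order (CTRL versus siIRF4). Of 12 regulators of NRF2, 1 rose and 6 fell (median log2 change -0.06, all genes 0.024), beside 33.1% higher and 26.5% lower among all tested genes, so the share called was near that of genes at large. NFE2L3, an NRF2 relative of the same CNC family, fell in each of the 4 lines, with 156 versus 109 TPM in KMS-12-PE and 89.8 versus 71.4 TPM in MM1R (average -0.40 ± 0.027, adjusted p = 4.28e-11). MAFG, a small MAF partner of NRF2, fell on average (-0.20 ± 0.023), with falls in KMS-12-PE (-0.48), KMS-12-BM (-0.36) and MM1R (-0.12) but a rise in MM1S (0.15). SQSTM1, the autophagy receptor that can draw KEAP1 away from NRF2, was the 1 that rose (0.064 ± 0.020), led by KMS-12-PE (115 versus 139 TPM). The repressor BACH1 had a log2 difference of 0.028 ± 0.039 (adjusted p = 0.556). BACH2, its lymphoid relative, was at 0.030 ± 0.042 on average (adjusted p = 0.558), with a rise in MM1R (0.29) and a fall in KMS-12-PE (-0.27).

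Of 20 other NRF2 target genes, 16 were tested, 3 rose and 6 fell (median -0.008), again near the 59.6% of all tested genes called. AKR1C3, an aldo-keto reductase, rose by 0.54 ± 0.063 on average, with 7.78 versus 14.1 TPM in MM1R and 8.24 versus 12.6 TPM in MM1S, whereas its close relatives AKR1C1 and AKR1C2 did not pass the filter, and reads may be shared among these near-identical genes. ABHD4, a lipid hydrolase, rose by 0.25 ± 0.028, with 49.0 versus 68.3 TPM in MM1S. Neither AKR1C3 (0.032, adjusted p = 0.914) nor ABHD4 (-0.013, adjusted p = 0.923) was called in KMS-12-BM. AKR1C3 was nearly absent there (0.033 versus 0.057 TPM), too low for a change to show on the log2(TPM + 1) scale, whereas ABHD4 was at 15.6 versus 15.4 TPM. The pentose phosphate genes TKT (-0.19 ± 0.022) and PGD (-0.13 ± 0.016) fell, with the falls called in the MM1 lines (TKT 354 versus 276 TPM in MM1R). In KMS-12-PE, 7 of the 16 rose and 1 fell (median 0.031, all genes -0.022), beside 15.9% higher and 22.2% lower among all tested genes. In MM1S, 4 rose and 6 fell (median -0.096, all genes 0.045), beside 29.1% higher and 21.1% lower.

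Of 26 glutathione genes other than GCLC and GCLM, 23 were tested, 4 rose and 12 fell (median -0.064), beside 33.1% higher and 26.5% lower among all tested genes. In KMS-12-PE, 8 rose and 7 fell (median 0.009, all genes -0.022), beside 15.9% higher and 22.2% lower. MM1R had 4 that rose and 10 that fell (25.0% higher and 21.2% lower among all tested genes), and MM1S 3 and 11 (29.1% and 21.1%). KMS-12-BM had 1 that rose and 4 that fell (11.4% and 6.09%). The largest average falls were in genes that break down glutathione or bring in its cystine. CHAC1, a glutathione-degrading cyclotransferase, fell by 0.87 ± 0.067 on the log2 scale, with 6.58 versus 2.12 TPM in KMS-12-PE, and was called lower in each line. Its relative CHAC2 changed by -0.62 ± 0.031, with 70.3 versus 31.8 TPM in MM1S, and was not called in KMS-12-BM (-0.063, adjusted p = 0.55). SLC7A11, the cystine transporter and an NRF2 and ATF4 target, changed by -0.52 ± 0.040, with 4.35 versus 1.89 TPM in KMS-12-PE and 2.31 versus 1.31 TPM in MM1R, levels so low that the added 1 TPM understates the ratio. In KMS-12-BM, SLC7A11 was under 1 TPM (0.64 versus 0.42 TPM) and was not called (-0.21, adjusted p = 0.0831). GSTK1, a glutathione transferase, rose in every line (average 0.28 ± 0.022), and GPX7, a peroxidase of the endoplasmic reticulum, rose on average (0.29 ± 0.034) and in each line except KMS-12-BM (0.021, adjusted p = 0.893).

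Of 19 other thioredoxin and peroxiredoxin genes, 6 rose and 5 fell (median 0.019), near the 59.6% of all tested genes called. TXNIP, the arrestin that binds and inhibits thioredoxin, rose on average by 0.55 ± 0.031. MM1S (121 versus 229 TPM), MM1R (234 versus 380.1 TPM) and KMS-12-BM (35.3 versus 63.4 TPM) carried the rise, and KMS-12-PE had a fall, with 59.8 versus 50.8 TPM (-0.23, adjusted p = 0.00524). TXN fell in MM1R, MM1S and KMS-12-BM and was not called in KMS-12-PE, where TXNIP fell, and a relation between TXN and TXNIP was not tested. SESN1, a sestrin induced by p53, rose in every line (average 0.46 ± 0.024, with 21.1 versus 34.5 TPM in KMS-12-BM). The mitochondrial peroxiredoxin PRDX3 (-0.19 ± 0.018) and the thioredoxin-like proteasome factor TXNL1 (-0.19 ± 0.021) fell on average, with PRDX3 at 350.1 versus 275 TPM in MM1S. In KMS-12-BM neither was called (PRDX3 -0.0069, adjusted p = 0.942, and TXNL1 -0.055, adjusted p = 0.413).

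Around HMOX1, 12 heme and iron genes gave 4 that rose and 2 that fell (median 0.028), beside 33.1% higher and 26.5% lower among all tested genes. TFRC, the transferrin receptor, fell in every line (average -0.52 ± 0.023), with 279 versus 159 TPM in MM1S and 689 versus 515 TPM in KMS-12-PE. ABCB6, a porphyrin transporter, fell on average (-0.28 ± 0.042) through the MM1 lines (38.1 versus 21.6 TPM in MM1S), and was called higher in KMS-12-PE (0.23). SLC48A1, which exports heme from lysosomes to the cytosol, rose by 0.38 ± 0.037, most in KMS-12-PE (10.3 versus 19.7 TPM), and BLVRA, which turns the biliverdin made by heme oxygenase into bilirubin, rose by 0.23 ± 0.028, with 169.5 versus 221 TPM in MM1R. SLC48A1 was not called in KMS-12-BM (0.11, adjusted p = 0.333), nor BLVRA in KMS-12-PE (0.060, adjusted p = 0.449). Of 10 superoxide and peroxide enzymes, 9 were tested, 5 rose and 3 fell (median 0.057), beside the same 33.1% and 26.5%. Catalase (CAT) rose in every line (average 0.33 ± 0.018, with 49.1 versus 69.6 TPM in MM1S). CYBB, the catalytic subunit of the phagocyte NADPH oxidase, rose on average by 0.61 ± 0.051 through MM1R (8.31 versus 27.2 TPM) and MM1S (4.65 versus 11.1 TPM), and was under 1 TPM in the KMS-12 lines. AIFM2, also called FSP1, a coenzyme Q reductase, fell on average (-0.38 ± 0.037) through the MM1 lines (34.5 versus 20.9 TPM in MM1R), and the superoxide dismutase SOD1 fell by 0.11 ± 0.020 on the log2 scale. The fall of SOD1 was called in the MM1 lines and not in KMS-12-BM (0.019, adjusted p = 0.817) or KMS-12-PE (-0.013, adjusted p = 0.856). In MM1R the myeloid marker S100A9 was higher along with CYBB (24.8 versus 94.7 TPM), with S100A8 at 0 in all 6 libraries, and their part in the CYBB change was not tested.

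**Figure D4:**
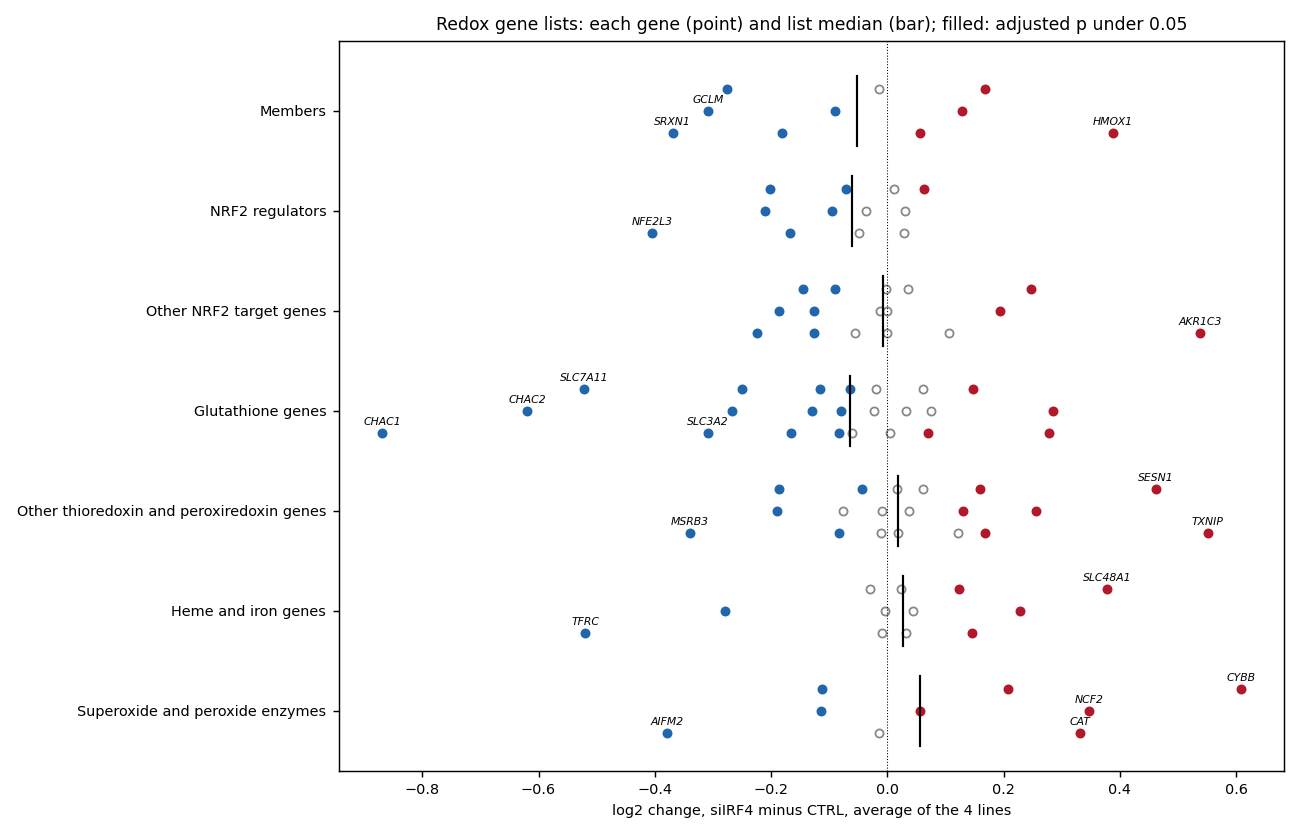
Log2 change averaged over the 4 lines (horizontal axis) for each tested gene of the members and of 6 lists of related genes (rows), filled where the adjusted p was under 0.05 (red higher, blue lower), with a black bar at the list median. List medians lie between -0.064 and 0.057, and the farthest genes are CHAC1 at -0.87 and CYBB at 0.61.

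Across the 24 libraries, which share 4 lines and 3 replicates of each group, the genes whose levels were most like a member's were described by Pearson's r of log2(TPM + 1), over points that share line, culture and treatment. For NFE2L2 the closest were POF1B (r = 0.992), ANKRD35 (0.988) and HLA-DQB1 (0.988). Their highest group means were 7.47, 5.41 and 96.7 TPM, so POF1B and ANKRD35 were near the floor of 5 TPM for this selection. NFE2L2 was set apart in KMS-12-PE, and a gene set apart in that line alone would also reach a high r. For NQO1 they were YME1L1 (0.995), POLR2B (0.99) and PTP4A2 (0.989), and for HMOX1 BAX and CHMP2A (0.964 each) and OGT (0.958). SRXN1 had weaker matches in SF3B2 (0.92), CCDC163P (0.907) and RAD54L (0.904). Among the members, NFE2L2 had r of 0.932 with TXNRD1, 0.925 with TXN, 0.886 with KEAP1, 0.862 with NQO1 and -0.81 with HMOX1. In CTRL, KMS-12-PE was the highest line for the first 5 of these genes and the lowest for HMOX1, so these r describe differences between lines. Within KMS-12-PE and MM1S, siIRF4 moved NFE2L2 up (0.13 and 0.12) and TXNRD1 down (-0.34 and -0.31). In MM1R and KMS-12-BM, TXNRD1 fell and NFE2L2 was not called. GCLC and GCLM had an r of 0.537, and PRDX1 and GCLC had an r of -0.795. AGPS, a gene on the opposite strand that shares exon bases with NFE2L2, also stood highest in KMS-12-PE CTRL (62.9 ± 1.23 TPM) but was lower in siIRF4 (54.0 ± 2.60 TPM), where NFE2L2 was higher. Whether the counting used strand is not given in the sources used here, so reads of overlapping genes cannot be told apart.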

How the data were processed

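RNA-seq values of 24 libraries (8 groups of 3) were deposited by the authors as 1 table of TPM per gene symbol. Per the submitters' processing notes, FastQC, MultiQC, STAR, featureCounts and hg19 were used, with versions, annotation and strand setting not given in the sources used. Of 25370 rows, 28 with symbols turned into dates and 1 without a symbol were left out. Whole reads recovered from the TPM steps (within 0.02 reads, in at least 6 libraries, 20484 genes, at least 99.96% of TPM) gave the depth of 17.3 to 27.4 M reads per library and a count model as an alternative.

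Genes with at least 1 TPM in at least 3 libraries (15113) were fitted as log2(TPM + 1) by limma 3.58.1 in R 4.3.3, with 8 group means, a trended robust prior and Benjamini-Hochberg adjustment over all genes in each contrast. A call is a two-sided adjusted p under 0.05, and a fold change on this scale understates changes of low genes. Tested on simulated data for the effect in KMS-12-PE over 15113 genes, 29% of changes of 0.25 (log2) and 75% of changes of 0.5 were recovered. Same-numbered siIRF4 and CTRL libraries of a line did not deviate together (r from -0.09 to 0.09, 0 of 12 pairs over 0.1), so the numbers did not pair the libraries. No 2 replicates agreed within sampling noise (chi-square per degree of freedom at least 2.07).

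All 10 members are named in each comparison. From each gene list, up to 2 genes called higher and 2 called lower with the smallest p are named, along with called genes of at least 0.5 (log2), and BACH1, BACH2, SLC7A11 and TXNIP whatever their values. Another listed gene that the rule allowed is not reported here. The most alike genes are those with the highest r among tested genes of at least 5 TPM in their highest group. Other genes named are markers, IRF4 and genes that overlap a member. The members and lists were chosen with earlier results of these data known, so they are described by counts and medians, with no test of a list. Promoter sequences are RefSeq's. The alternatives were a pseudocount of 0.1 TPM, no low-value filter, median-of-ratios scaling, only genes averaging 5 TPM or more, a prior without trend, a replicate block, each line fitted alone, voom on the recovered reads, and each library left out.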

Additional observations from a re-analysis of the deposited data

Results flagged for a closer look

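For 9 member responses, the response to siIRF4 differed between lines by limma's interaction term (adjusted over all tested genes). Between the KMS-12 lines, given as KMS-12-BM minus KMS-12-PE on the log2 scale, these were GCLM (0.45, adjusted p = 0.000923), TXNRD1 (0.20, 0.00382), GCLC (-0.31, 0.00394), SRXN1 (0.25, 0.0298) and TXN (-0.20, 0.0299). Between the MM1 and the KMS-12 lines, given as the former minus the latter, these were PRDX1 (0.53, 2.93e-09), TXN (-0.19, 0.00202), HMOX1 (0.30, 0.0349) and NQO1 (-0.18, 0.0427). Of all tested genes, 23.0% differed between the KMS-12 lines and 44.9% between the MM1 and KMS-12 lines. Between MM1R and MM1S, 0 of the 10 members and 2.47% of all tested genes differed. PRDX1 was higher in siIRF4 in 6 of 6 libraries of the MM1 lines than in any CTRL library of the same line. The groups did not overlap, in either direction, for 53.8% of all tested genes in MM1R and 55.0% in MM1S. GCLM and TXNRD1 had the lowest adjusted p between the KMS-12 lines, and both calls, with that of GCLC, held when each library was left out.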

How the results depend on the processing

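The count of members called in KMS-12-BM was 5, and was 3 with no filter, 3 with median-of-ratios scaling, 3 with the replicate block and 2 with each line fitted alone. Between KMS-12-BM and KMS-12-PE it was 5, and 3 with the replicate block. Between the MM1 and KMS-12 lines it was 4, and 2 with no filter. The cause was not tested. With each of the 24 libraries left out in turn, counts ranged from 8 to 9 on average, 6 to 8 in MM1R, 6 to 9 in MM1S, 2 to 5 in KMS-12-BM, 4 to 6 in KMS-12-PE, 0 to 0 between MM1R and MM1S, 3 to 6 between the KMS-12 lines and 2 to 4 between the MM1 and KMS-12 lines. For CTRL levels they ranged from 6 to 6 (MM1R and MM1S), 8 to 9 (MM1R and KMS-12-BM), 8 to 9 (MM1R and KMS-12-PE), 6 to 6 (MM1S and KMS-12-BM), 9 to 9 (MM1S and KMS-12-PE) and 9 to 9 (KMS-12-BM and KMS-12-PE). For the lists on average they ranged from 14 to 17 (glutathione), 6 to 6 (heme and iron), 7 to 8 (regulators), 9 to 10 (other targets), 10 to 12 (other thioredoxin and peroxiredoxin genes) and 8 to 8 (superoxide and peroxide). No called value changed sign under any of these alternatives.

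The replicate numbers marked no pairing in the data (2 of 12 pairs correlated best with their own number). Of the 80 single-gene results refitted with the replicate block, 74 kept their side of the threshold. Calls were lost for NQO1 (adjusted p = 0.0691) and SRXN1 (0.0602) in KMS-12-BM, for SRXN1 (0.0732) and TXN (0.05, above the threshold before rounding) between the KMS-12 lines and for NQO1 between the MM1 and KMS-12 lines (0.0564), and PRDX1 in KMS-12-PE gained one (0.03). Of 140 such results, voom on the recovered reads left 121 on the same side and in the same direction, 3 lost a call and 7 gained one, among them KEAP1, HMOX1, SRXN1 and TXNRD1 between CTRL lines, and 9 uncalled values changed sign. Median-of-ratios scaling gave 6 lost and 2 gained calls (GCLC in CTRL cells, MM1S against KMS-12-PE, adjusted p = 0.0112, and NFE2L2 between the KMS-12 lines, 0.0318). In simulated data, changes of 0.25 (log2) in KMS-12-PE were recovered in 29% of cases. The 100 genes so changed were drawn from all tested genes, so this share does not say how far a given member may differ. For an uncalled member, the SE printed with its log2 difference describes that uncertainty.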
